A study of Mus musculus with 32 samples.

Results

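Chromatin accessibility at Serpina3k and Etnppl was measured by ATAC-seq, which reads open chromatin through the cuts a transposase makes in it, in livers of mice lacking 1 gene for the phenylalanine tRNA and of wild-type mice. The members are the ATAC-seq peaks that overlap chr12:104300000-104500000, around Serpina3k, or chr3:130600000-130660000, around Etnppl, on GRCm38.p6. Both windows were selected because peaks in them had large differences between the groups in earlier results of these data, so the differences below are a description and carry no test. The windows held 110 of the 336102 consensus peaks of the 3 liver comparisons. By comparison these were 40 of 125852 peaks for Phe11, 38 of 108912 for Phe21 and 32 of 101338 for the libraries labelled Phe31. The same windows held 56 of the 703947 consensus peaks of the 3 brain comparisons, which serve as the other tissue.

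All groups were male C57BL/6N mice 10 weeks of age, age- and littermate-matched, fed normal chow. The knockouts Phe11, Phe21 and Phe31 carry a homozygous CRISPR deletion, of tRNA-Phe-GAA-1-1 in Phe11, of tRNA-Phe-GAA-2-1 in Phe21 and of tRNA-Phe-GAA-3-1 in Phe31, and each was compared with wild-type mice (WT). The liver comparisons used 4 WT and 4 Phe11 libraries, 3 WT and 3 Phe21 libraries, and 3 WT and 3 libraries labelled Phe31. The WT libraries of the Phe21 comparison also served the Phe11 comparison, whereas the libraries labelled Phe31 had WT libraries of their own. Per the labels, both groups of the Phe11 comparison had 2 libraries in batch 1 and 2 in batch 2, the Phe21 livers were all in batch 1 with 2 of their WT libraries in batch 1 and 1 in batch 2, and the labelled Phe31 comparison was all in batch 3. Group means allow no value within a batch. The brain comparisons used 4 WT and 4 Phe11 libraries and 3 libraries per group for Phe21 and Phe31. Libraries were made from whole tissue, in which fewer nuclei of an open cell type and less open chromatin per nucleus cannot be told apart.

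Serpina3k encodes a secreted serine protease inhibitor of the serpin clade A that hepatocytes make in large amounts, and it lies in a cluster of related serpin genes that has expanded in the mouse. Etnppl encodes ethanolamine-phosphate phospho-lyase, an enzyme that breaks down phosphoethanolamine, an intermediate in the synthesis of the membrane lipid phosphatidylethanolamine. Active genes are usually most accessible at their start and at nearby enhancers, and genes that are transcribed very heavily can be accessible along their whole length.

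The deleted loci were read first as a check of the genotype labels. In Phe11 liver, normalised counts at tRNA-Phe-GAA-1-1 were 18.6, 21.9, 20.9 and 26.7 in WT replicates 1, 3, 22 and 24, and 3.07, 3.12, 5.31 and 1.24 in knockout replicates 4, 6, 20 and 21. The groups did not overlap, and the mean of the knockout was 14.4% of WT (exact two-sided permutation test of log2 values, p = 0.0286, the smallest that 4 against 4 libraries can give). The reads of WT replicates 1 and 22 over the tRNA loci differed by less than the sampling noise (chi-square per degree of freedom 0.440), as did those of WT replicates 3 and 24 (0.744) and knockout replicates 6 and 20 (0.764), whereas the other pairs within these groups lay between 1.01 and 1.45. Each of the 3 close pairs has 1 library in batch 1 and 1 in batch 2, and whether its libraries come from 1 sample cannot be told from the labels. With each close pair counted as 1 sample, WT had 22.0 ± 3.21 (SD, n = 2) and Phe11 2.84 ± 1.5 (SD, n = 3), for which the exact test gave p = 0.2, the smallest possible. The group means of peaks below take every library as its own replicate.

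In Phe21 liver, tRNA-Phe-GAA-2-1 had normalised counts of 1.19, 4.2 and 3.42 in WT replicates 1, 3 and 24 and 0.602, 0 and 0 in knockout replicates 7, 8 and 9, from at most 3 reads per library. The groups did not overlap, with WT replicates 3 and 24 again closer than sampling noise and counted as 1 sample (WT 2.50 ± 1.85, SD, n = 2). The libraries labelled Phe31 did not show the loss that their label names. At tRNA-Phe-GAA-3-1 they had 9.01, 9.62 and 10.6 against 13.2, 15.6 and 9.91 in their WT libraries, so that the groups overlapped and 75.4% of WT was kept (exact two-sided permutation test, p = 0.2). At tRNA-Phe-GAA-1-1, the locus deleted in Phe11, the same libraries had 2.25, 0 and 0 against 10.7, 6.25 and 5.66 in WT. These did not overlap (p = 0.1 in the exact two-sided permutation test, the smallest that 3 against 3 can give). They are therefore called the libraries labelled Phe31 throughout, and no direction below is assigned to the loss of tRNA-Phe-GAA-3-1.

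The labelled tissue was checked against marker genes. Of 7 hepatocyte genes, 6 had a consensus peak at their outermost annotated start in all 3 liver comparisons and none had one in brain. The exception in liver was Tat, which had a peak in all 3 liver comparisons at another annotated start. Of 5 neuronal genes, all had a peak at their start in all 3 brain comparisons, Map2 in all 3 liver comparisons and Syt1 in liver Phe11 and Phe21. The bile duct genes Krt19 and Epcam had no peak at their start in either tissue. Of 4 immune genes, Clec4f, a marker of Kupffer cells, and Adgre1 had a peak at their start in all 3 liver comparisons, Adgre1 also in all 3 brain comparisons, and Ptprc and Cd3e had none at the outermost start. At another annotated start Ptprc had one in all 3 liver comparisons.

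Promoter sequences of RefSeq, from 250 bases before to 50 after a gene's start, were available for 8 of the 13 genes in the windows, and Serpina3k was not among them. The 3 below, each on its gene's strand and 5′ to 3′, are shown because the peaks over them behaved differently: the Etnppl start was listed as higher in the Phe21 and labelled Phe31 comparisons, the start of the noncoding gene Gm40561 lay under a peak listed in opposite directions in those comparisons, and the start of Serpina3n had a peak in all 6 tables and was listed in none. Capitals mark matches to the 9 motifs searched on both strands.
Etnppl, second start, chr3:130617325-130617624, plus strand: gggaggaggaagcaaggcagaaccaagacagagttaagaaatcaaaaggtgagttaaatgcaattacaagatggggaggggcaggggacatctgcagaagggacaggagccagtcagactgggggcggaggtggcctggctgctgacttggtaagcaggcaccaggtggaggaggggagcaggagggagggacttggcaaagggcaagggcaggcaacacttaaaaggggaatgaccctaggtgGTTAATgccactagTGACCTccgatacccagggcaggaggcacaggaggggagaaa
Gm40561, chr12:104404119-104404418, minus strand: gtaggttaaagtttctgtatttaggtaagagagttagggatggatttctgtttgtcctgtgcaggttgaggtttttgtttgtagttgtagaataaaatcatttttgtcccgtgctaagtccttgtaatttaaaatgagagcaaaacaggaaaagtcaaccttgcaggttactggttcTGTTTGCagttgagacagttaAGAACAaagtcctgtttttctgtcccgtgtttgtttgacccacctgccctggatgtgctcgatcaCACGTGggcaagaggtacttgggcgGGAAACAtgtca
Serpina3n, chr12:104406458-104406757, plus strand: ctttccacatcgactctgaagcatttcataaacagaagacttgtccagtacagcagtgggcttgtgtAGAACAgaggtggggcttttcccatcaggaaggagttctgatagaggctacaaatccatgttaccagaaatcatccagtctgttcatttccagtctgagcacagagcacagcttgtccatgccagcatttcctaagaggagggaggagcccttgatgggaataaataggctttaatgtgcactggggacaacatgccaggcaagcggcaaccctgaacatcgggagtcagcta
The motifs were CACGTG (E-box), TTATGTAA (D-box), TTCNNNGAA (STAT), TGTTTNC (forkhead), CAAAGTCCA (HNF4), TTGCNNAA (C/EBP), GTTAAT (HNF1 half-site), AGAACA (glucocorticoid receptor half-site) and AGGTCA (nuclear receptor half-site). The Etnppl sequence held GTTAAT from position 245, counted from its first base, and AGGTCA on the other strand from position 259. The Gm40561 sequence held CACGTG from position 264, TGTTTNC from 178 and, on the other strand, from 289, and AGAACA from 199. The Serpina3n sequence held AGAACA from position 68 only. Among 32544 mouse promoters of this length, 7.13% held GTTAAT, 16.2% AGGTCA, 7.17% CACGTG, 20.5% TGTTTNC and 18.9% AGAACA. The other annotated Etnppl start, with the promoter chr3:130617198-130617497, held none of the motifs.

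A consensus peak is a region the authors used for 1 comparison, and its concentration is the log2 of a group's mean normalised reads in the whole peak. The deposited tables list only consensus peaks that passed an FDR of 0.05 in the authors' test, with 1 mean per group and no value per library. A listed peak is called higher or lower by its concentration in the knockout minus that in WT, and the other members have no deposited value. In Phe11 liver 7 of 40 members were listed, all higher, against 4.14% of all consensus peaks listed, 1.95% as higher and 2.19% as lower. In Phe21 liver 7 of 38 members were listed, 5 higher and 2 lower, against 14.4% of all peaks listed, 7.29% as higher and 7.07% as lower. In the libraries labelled Phe31, 20 of 32 members were listed, 11 higher and 9 lower, against 18.9% of all peaks listed, 6.85% as higher and 12.1% as lower. Because the windows were selected on these contrasts, nothing is read from the shares of members. Directions by window were uniform in the Phe11 and labelled Phe31 comparisons: the Serpina3k window had 7 of 28 peaks higher in Phe11 and 9 of 18 lower in the libraries labelled Phe31, and the Etnppl window had 0 of 12 listed in Phe11 and 11 of 14 higher in the libraries labelled Phe31.

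Serpina3k itself (gene ID 20714, chr12:104338486-104345739, 7254 bases, plus strand) was covered by an 11211-base peak in the Phe11 comparison, chr12:104338099-104349309, which began 0.39 kb before the gene's start and ended 3.57 kb past its end. Its concentration was 12.09 in Phe11 and 8.98 in WT, a difference of 3.11 or 8.63-fold, and per length this was 389 against 45.0 reads per kb. Of the 125852 consensus peaks of this comparison, 26 were at least as wide, and of the 5214 listed peaks 14 had a difference at least as high. The whole gene was thus inside 1 peak with more reads in the knockout. A separate peak 2.17 to 1.12 kb before the start, chr12:104336319-104337367, had a concentration of 8.39 in Phe11 and 7.73 in WT.

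The same stretch in the libraries labelled Phe31 was divided into 4 listed peaks, all lower than in their WT libraries. The peak over the start, chr12:104338123-104338922, had a concentration of 5.64 against 7.20 in WT. Inside the gene, chr12:104339744-104340486 had 4.89 against 5.91 and chr12:104340714-104342759 had 5.88 against 7.22. The decline was steepest over the end of the gene. There a 6303-base peak, chr12:104342973-104349275, reaching from 4.49 to 10.79 kb after the gene's start, had a concentration of 6.81 against 11.66, a difference of -4.85 or 28.8-fold, with 17.8 reads per kb in the libraries labelled Phe31 and 513 in WT. This was the lowest difference of all 19201 listed peaks of the comparison. The peak before the start, chr12:104336397-104337358, had 6.56 against 7.88. The 2 WT groups also stood apart from each other here, with 45.0 reads per kb over the long peak of the Phe11 comparison and 513 over the shorter peak of the labelled Phe31 comparison, 2 peaks of different bounds that were normalised in separate tables. No test was made of that difference.

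In the Phe21 comparison, Serpina3k had 4 separate consensus peaks and none was listed: chr12:104338107-104338675 over the start, chr12:104339983-104340461, chr12:104342033-104342349, and the 3278-base chr12:104345035-104348312 over the gene's end. The peak before the start was not listed there either. Consensus peaks covered 23.3% of the gene in this comparison, 100% in Phe11 and 82.6% in the labelled Phe31 comparison. Among 16853 protein-coding genes of at least 5 kb, 11 were covered as much in Phe11, Serpina3k among them, and 15 in the labelled Phe31 comparison. The median gene was covered to 4.37%, 3.40% and 3.06% in the Phe11, Phe21 and labelled Phe31 comparisons.

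**Figure D1:**
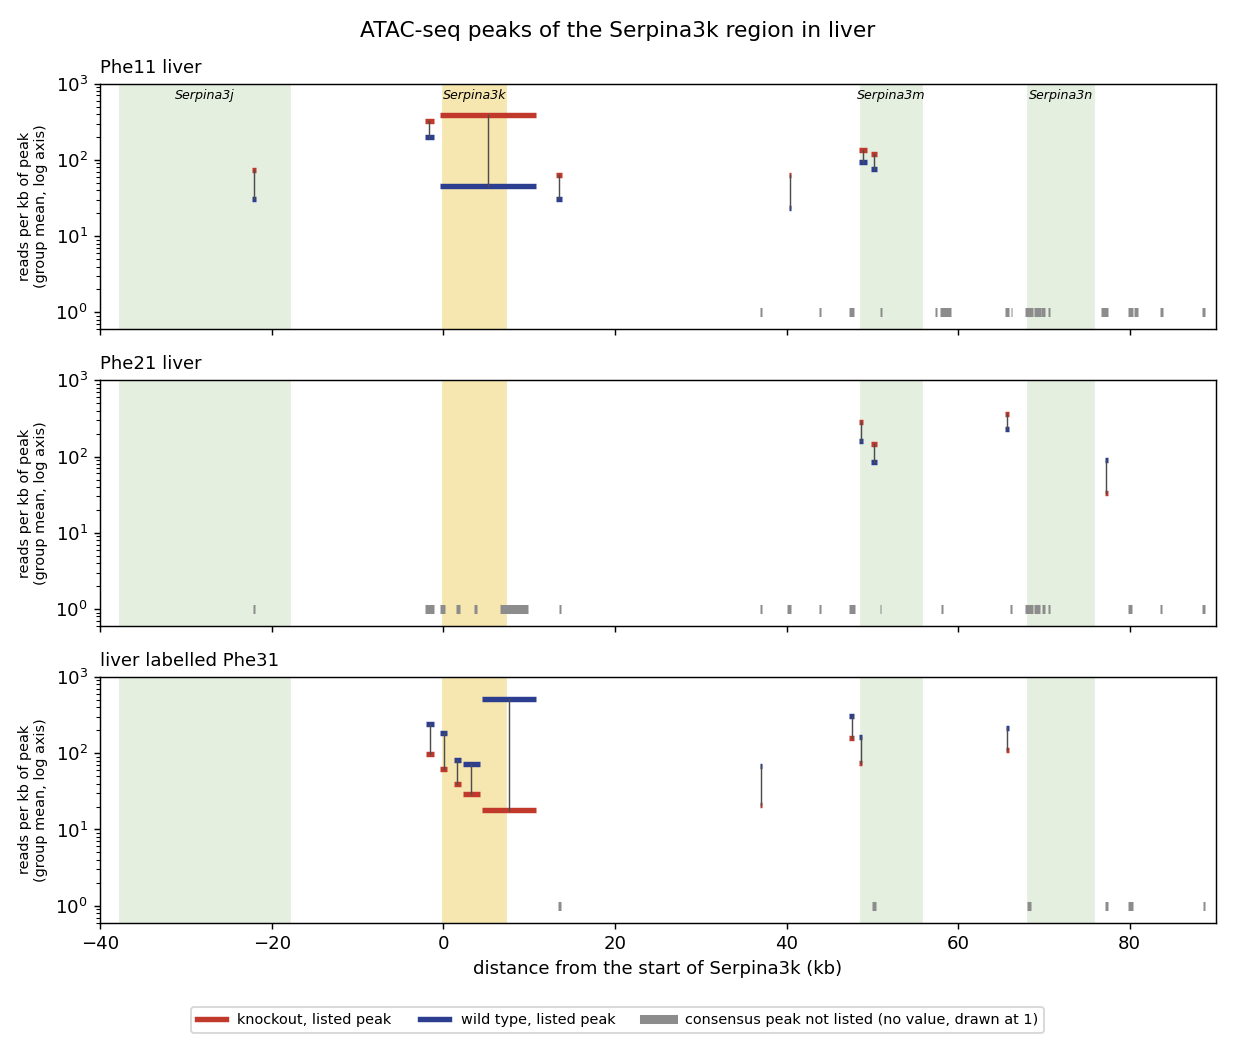
Peaks around Serpina3k in the 3 liver comparisons, with the distance from the gene's start in kb on the horizontal axis and the group's mean normalised reads per kb of peak on a logarithmic vertical axis. Red lines are the knockout and blue lines WT, each as long as the listed peak, grey marks at the bottom are consensus peaks without a deposited value, and unlisted peaks past the right edge are not drawn. Over Serpina3k (yellow) the knockout lies above WT in Phe11, at 389 against 45.0 reads per kb, and far below it in the libraries labelled Phe31, at 17.8 against 513 over the gene's end.

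Listed peaks at and between the other serpin genes of the window had smaller differences than the long peaks over Serpina3k. Serpina3j, the serpin gene before Serpina3k, had 1 listed peak, chr12:104316184-104316586, with a concentration of 4.88 in Phe11 and 3.61 in WT. Between Serpina3k and Serpina3m, which encodes a close paralog, chr12:104351657-104352323 had 5.40 in Phe11 against 4.37 and chr12:104378734-104379026 had 4.22 against 2.76. Both were listed in Phe11 only. In the libraries labelled Phe31, chr12:104375380-104375589 had 2.14 against 3.83 and chr12:104385803-104386394, just before Serpina3m, had 6.55 against 7.49.

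The start of Serpina3m was the place listed in all 3 liver comparisons. Its concentration was 7.06 in Phe11 against 6.54 in WT (chr12:104386893-104387886), 6.95 in Phe21 against 6.13 (chr12:104386901-104387336), and 4.95 in the libraries labelled Phe31 against 6.07 (chr12:104386912-104387321). A peak inside Serpina3m was higher in Phe11, at 6.49 against 5.85 (chr12:104388316-104389078), and in Phe21, at 6.69 against 5.88 (chr12:104388287-104388989). Phe11 and Phe21 share WT libraries, so these 2 comparisons are not separate evidence. In the labelled Phe31 comparison the corresponding peak, chr12:104388455-104388865, was not listed.

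The peak over the start of Gm40561, a noncoding gene between Serpina3m and Serpina3n, had a concentration of 7.22 in Phe21 against 6.57 in WT (chr12:104404004-104404415) and 5.46 in the libraries labelled Phe31 against 6.44 (chr12:104404011-104404410). It covers most of the Gm40561 promoter printed above and was not listed in Phe11. Serpina3n encodes another secreted serpin, known as an acute phase protein of the mouse. Its start and body had 4 consensus peaks in Phe11, 4 in Phe21 and 1 in the labelled Phe31 comparison, and none was listed. A peak past its end, chr12:104415600-104415937, was lower in Phe21, at 3.5 against 4.94. The rest of the window, to Gsc, which encodes a homeobox transcription factor of early development, held unlisted peaks only.

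Etnppl (gene ID 71760, chr3:130617448-130635750, 18303 bases, plus strand) was open along much of its length in 1 comparison. Of the 14 peaks of the Etnppl window, 11 were listed in the libraries labelled Phe31, all higher than WT. The 6 largest differences, from 3.42 to 4.74, lay between chr3:130621687 and chr3:130637337, from the body of the gene to just past its end. At these 6 peaks WT had between 5.99 and 8.06 reads per kb and the libraries labelled Phe31 between 69.8 and 191. The other 5 listed peaks, with differences between 0.31 and 1.90, already had between 22.3 and 243 reads per kb in WT. The WT value is part of the difference by which these peaks were ordered.

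By position, the first of these body peaks, chr3:130621687-130622564, had a concentration of 6.71 against 2.53 in WT. Next along the gene, chr3:130623907-130624488 had 5.76 against 2.23 and chr3:130624613-130626596 had 7.99 against 3.57. The widest followed. At chr3:130626733-130629590, 2858 bases from 9.28 to 12.14 kb after the start, the concentration was 9.09 against 4.35, a difference of 4.74 or 26.7-fold, which was the highest of all 19201 listed peaks of the comparison. Near the gene's end, chr3:130635218-130635663 had 4.96 against 1.54 and chr3:130635779-130637337, which begins 0.03 kb past the end, had 8.05 against 3.60. Serpina3k and Etnppl thus held the lowest and the highest difference of the same table, and at both genes the affected stretch ran past the annotated end.

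The start of Etnppl had a peak in every liver comparison, with the smallest differences of the window where it was listed. Its peak had a concentration of 7.52 in the libraries labelled Phe31 against 7.21 in WT (chr3:130617348-130617956), and 7.19 in Phe21 against 6.77 (chr3:130617331-130617928). In Phe11 the peak chr3:130617345-130617964 was not listed. Both annotated starts lie in this peak, which overlaps the Etnppl promoter printed above. A peak inside the gene that was already open in WT, chr3:130633618-130634696, had 7.75 in the libraries labelled Phe31 against 7.02. Differences were intermediate at chr3:130632738-130633211, which also overlaps the noncoding gene Gm36322, at 5.30 against 3.40, and at chr3:130618473-130618630, at 4.67 against 3.36. The counting is not stated to use strand and ATAC-seq has none, so signal there cannot be assigned to Etnppl or Gm36322. Upstream of the gene, chr3:130607943-130608252 had 5.76 against 4.34.

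In Phe21 liver the Etnppl window had 3 listed peaks of 10. A peak 3.19 to 2.68 kb before the start, chr3:130614255-130614766, was higher, at 6.79 against 6.03, and this place was a consensus peak without listing in the other 2 liver comparisons. A peak past the gene's end, chr3:130636266-130636633, was lower, at 2.53 against 4.2, whereas the overlapping 1559-base peak of the labelled Phe31 comparison was higher by 4.45. In Phe11 liver the 12 peaks of the window, 183 to 1149 bases wide, were not listed, and 5 of them lay inside the gene beyond its start. Consensus peaks covered 13.5% of Etnppl in Phe11, 7.04% in Phe21 and 49.0% in the labelled Phe31 comparison, where 90 of 16853 genes were covered as much.

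**Figure D2:**
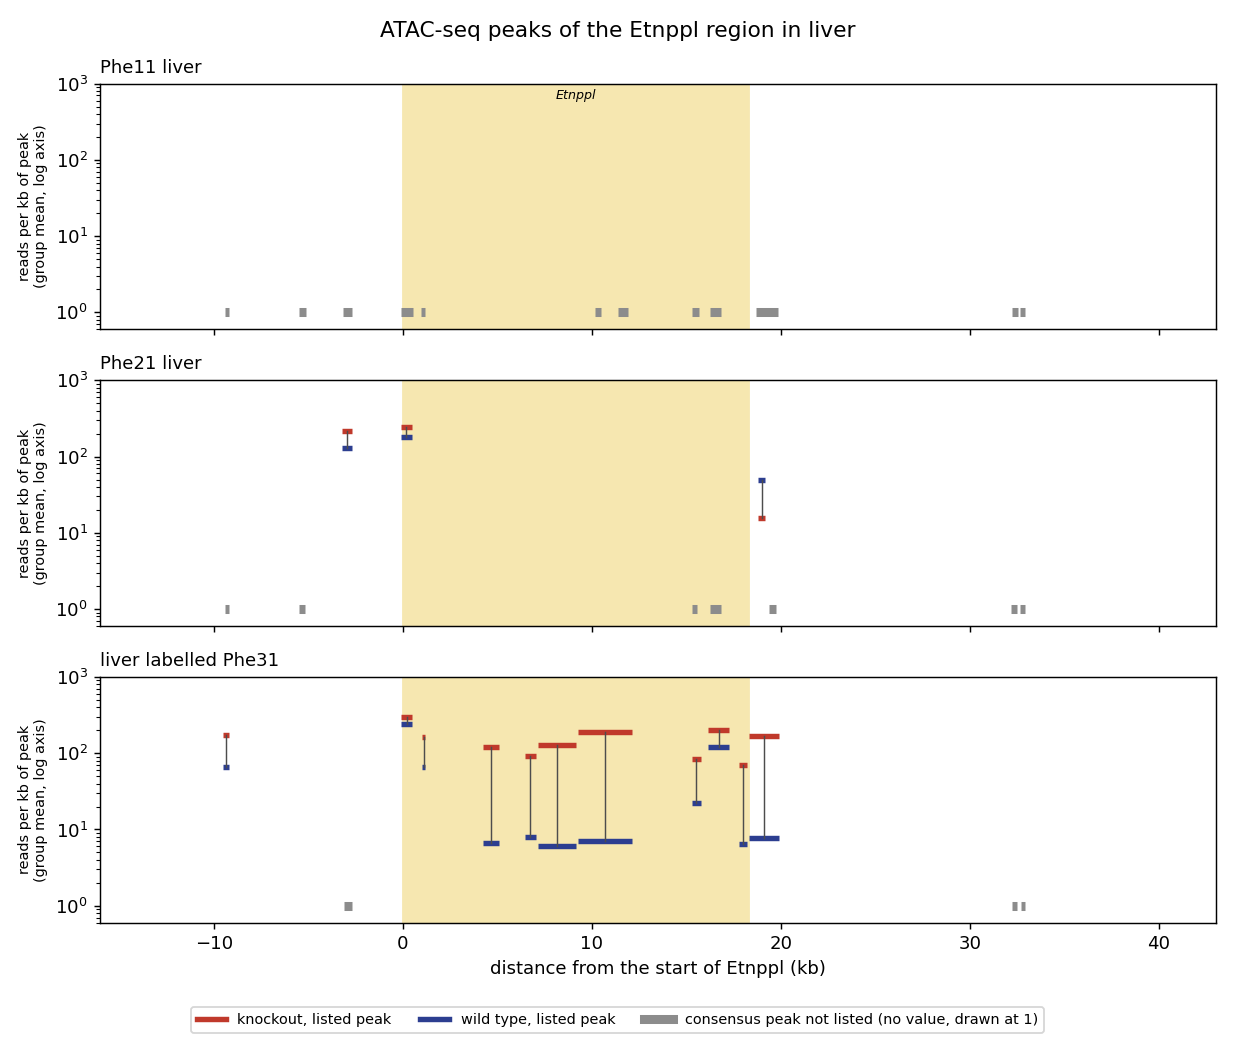
Peaks around Etnppl in the 3 liver comparisons, drawn as for Serpina3k with the distance from the start of Etnppl in kb and the group's mean normalised reads per kb of peak on a logarithmic axis. In the libraries labelled Phe31 (bottom), WT (blue) lies between 5.99 and 8.06 reads per kb at 6 peaks in and past the gene where the knockout group (red) lies between 69.8 and 191, while both groups are close together at the start.

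**Figure D3:**
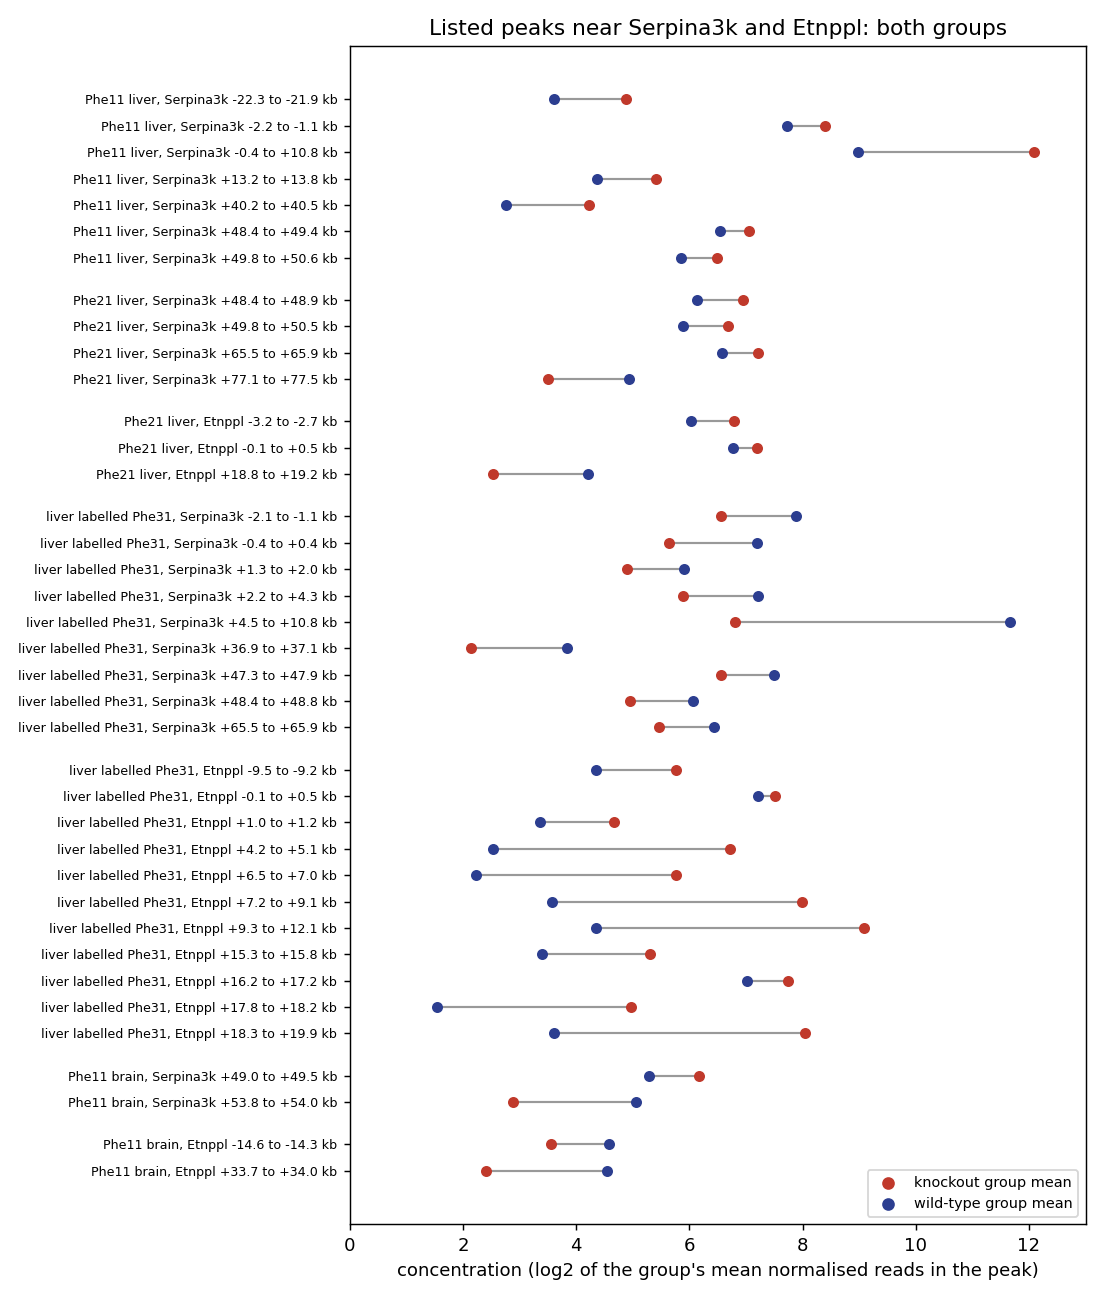
Concentration, the log2 of the group's mean normalised reads in the peak, at every listed peak of both windows, with red points for the knockout group and blue points for WT and the position of each peak given from the start of its gene in kb. All 7 peaks of Phe11 liver have the red point to the right, all 9 Serpina3k peaks of the libraries labelled Phe31 have it to the left, and all 11 Etnppl peaks of those libraries have it to the right.

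Several places were listed in more than 1 liver comparison. The Phe11 and labelled Phe31 comparisons share no library, and the 6 pairs of overlapping listed members they have, 4 of them with the 11211-base peak over Serpina3k, all differ in sign. These pairs overlap by at least 1 base, and with 50% of both peaks required 2 of the 6 remain, which differ in sign as well. Over the whole genome, 2085 listed peaks of the labelled Phe31 comparison overlapped a listed peak of Phe11, and 1714 of them (82.2%) had the opposite sign: 1385 were higher in Phe11 and lower in the libraries labelled Phe31, 329 were the reverse, 38 were higher in both and 333 lower in both. Phe21 and the labelled Phe31 comparison share no library either, and of their 4 pairs of listed members 3 differ in sign, the exception being the Etnppl start. With 50% of both peaks required, 3 pairs remain and 2 of them differ in sign. The share over all listed peaks was not counted for these 2 comparisons, so nothing is read from these pairs.

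The nearest consensus peak outside each bound was not listed in any liver comparison. Beyond the Etnppl window it lay 0.5 kb past the end in all 3 comparisons, and the last peak inside, 9.6 kb from the end, was not listed either. Before the Serpina3k window the nearest peak outside lay 9.8 kb away in Phe11, where the first peak inside, 16.2 kb from the bound, had the concentrations of 4.88 and 3.61 given above for Serpina3j.

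In brain, Serpina3k had no consensus peak over any of its bases in the 3 comparisons. The nearest in Phe11 brain, chr12:104337708-104337970, ended before the gene's start. Etnppl had no peak over its start in brain and 6.26%, 7.00% and 6.41% of its length was covered in Phe11, Phe21 and Phe31, by peaks such as chr3:130620441-130620856 and chr3:130633845-130634193 in Phe11. Of the 21, 16 and 19 members in the Phe11, Phe21 and Phe31 brain comparisons, 4, 0 and 0 were listed, against 16.3%, 0.711% and 0.000465% of all consensus peaks. The 4 listed in Phe11 brain were none of the liver's leading peaks. A peak inside Serpina3m, chr12:104387508-104387996, had 6.16 in Phe11 against 5.29 in WT, and another, chr12:104392237-104392492, had 2.89 against 5.05. The first overlaps the peak over the Serpina3m start listed in Phe11 liver, chr12:104386893-104387886, which was also higher than WT. Near Etnppl, chr3:130602852-130603132 had 3.55 against 4.58 and chr3:130651102-130651410, inside the noncoding gene Gm36373, had 2.4 against 4.54. Serpina3n, by contrast with Serpina3k, had a peak at its start in all brain and liver comparisons.

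**Figure D4:**
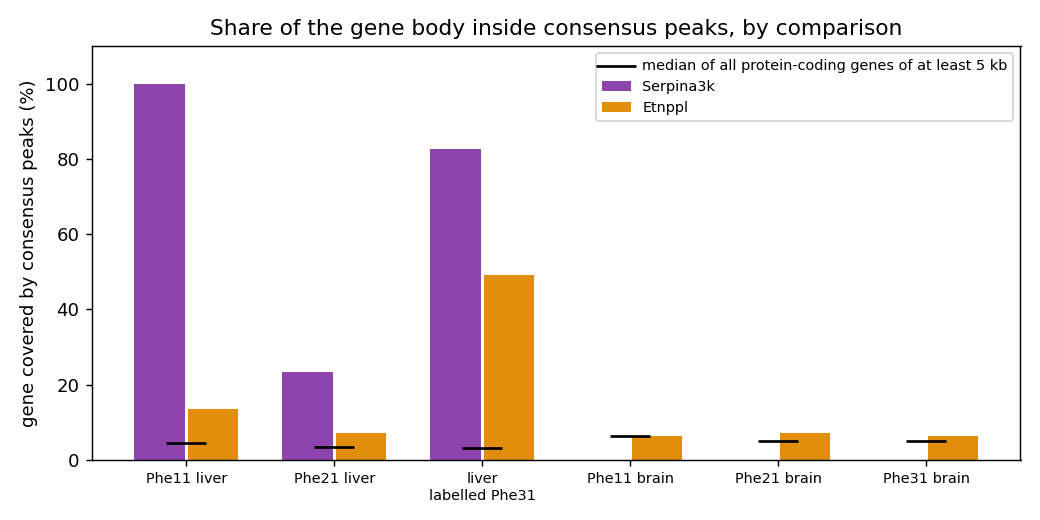
Share of Serpina3k and of Etnppl inside consensus peaks, in percent of the gene's bases, for the 3 liver and 3 brain comparisons, with black lines at the median of all protein-coding genes of at least 5 kb. Serpina3k reaches 100% in Phe11 liver and 82.6% in the liver labelled Phe31 and is at 0 in every brain comparison, and Etnppl reaches 49.0% in the liver labelled Phe31 alone.

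The genes related to Serpina3k were described from a list of 24 genes of the serpin clade A, of which 23 lie within 798 kb on chr12. A gene was counted by the listed peaks inside it or in the 5 kb before its start, so neighbours can share a peak and genes with more peaks are listed more often. In Phe11, 13 of 24 genes with a consensus peak had higher peaks only and none had lower, against 5.82% of all protein-coding genes with higher only and 8.82% with lower only. In Phe21, 10 of 23 had higher only and none lower, against 15.1% and 19.0%. In the libraries labelled Phe31, 15 of 21 had lower only and 2 higher only, against 32.3% and 12.6%. These counts include Serpina3k and its window, whose values chose the members. Without the genes of that window, a count added after the values were seen, 10 of 20 genes had higher peaks only in Phe11 and 8 of 19 in Phe21, with none lower in either, and in the libraries labelled Phe31 12 of 18 had lower only and 2 higher only. Counted as distinct peaks, 26 of 26 were higher in Phe11, 18 of 18 in Phe21, and 35 of 38 lower in the libraries labelled Phe31. Outside the Serpina3k window these were 21 of 21, 15 of 15 and 27 of 30. Phe11 and Phe21 share WT libraries, so the counts of these 2 comparisons are not separate evidence. Of all listed peaks, those of the cluster included, 47.1% were higher in Phe11, 50.8% higher in Phe21 and 63.9% lower in the libraries labelled Phe31.

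Outside the window, long peaks with large differences were also listed at Serpina4-ps1, a pseudogene, where an 11919-base peak had a concentration of 11.41 in Phe11 against 7.93 in WT and a 9326-base peak had 7.52 in the libraries labelled Phe31 against 11.24. Serpina1e, which encodes an alpha-1 antitrypsin, had a 6690-base peak at 8.55 in the libraries labelled Phe31 against 11.13 and a peak at 5.44 in Phe11 against 3.87. Serpina9 had 7.59 in Phe11 against 5.03 and 5.71 in the libraries labelled Phe31 against 7.65. Serpina6, which encodes the carrier of corticosteroids in plasma, was not listed in Phe11, and had 7.69 in Phe21 against 6.98 and 5.81 in the libraries labelled Phe31 against 6.71. The 2 exceptions in the libraries labelled Phe31 were Serpina1a, at 4.69 against 2.60, and Serpina3g, at 4.60 against 3.28.

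The genes around Etnppl in metabolism were described from a list of 16 genes of phosphatidylethanolamine and phosphoethanolamine metabolism, 15 of which had a consensus peak. Etnppl was, in the libraries labelled Phe31, the only gene of the list with higher peaks only (6.67%, against 12.6% of all protein-coding genes), whereas 10 had lower only (66.7% against 32.3%) and 1 both. Etnk2, an ethanolamine kinase, which makes phosphoethanolamine, had only lower peaks listed in each comparison. The peaks with the largest difference do not overlap between comparisons, and had 8.45 in Phe11 against 9.05, 3.48 in Phe21 against 4.93 and 8.24 in the libraries labelled Phe31 against 9.0. Pemt, which methylates phosphatidylethanolamine to phosphatidylcholine, had peaks in both directions in Phe21 and in the libraries labelled Phe31. Most other differences of the list in those libraries were small, such as Sgpl1, the sphingosine-1-phosphate lyase that also yields phosphoethanolamine, at 9.17 against 9.33. In Phe11 no gene had higher peaks only and 3 had lower only (20% against 8.82% of all protein-coding genes), and in Phe21 6 had higher only (40% against 15.1%), 2 lower only (13.3% against 19.0%) and 2 both.

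Genes that liver uses in fasting and under glucocorticoids were described from a list of 20, all with a consensus peak. Of these, 6 had higher peaks only in the libraries labelled Phe31 (30% of the list, against 12.6% of all protein-coding genes), 5 lower only (25% against 32.3%) and 6 both (30% against 7.86%). Taking the peak with the largest difference of each gene, the widest in these libraries, chosen after the values were seen, were at Pck1, G6pc and Tat. Pck1, the gene of a rate-limiting enzyme of gluconeogenesis, had a 9805-base peak at 12.58 against 10.31, G6pc a 10578-base peak at 11.38 against 8.89 beside 1 lower peak in or before the gene, and Tat, which encodes tyrosine aminotransferase, an 11560-base peak at 12.03 against 10.30. Other genes of the list were lower in the same libraries, among them Fkbp5, a glucocorticoid target, at 3.35 against 4.48, and Angptl4, an inhibitor of lipoprotein lipase, at 7.05 against 7.5. In Phe11, 3 had higher only (15% against 5.82%), 1 lower only (5% against 8.82%) and 1 both. In Phe21 the counts were 6 (30% against 15.1%), 6 (30% against 19.0%) and 5 (25% against 5.53%), and Tat went the other way, at 10.51 against 11.93.

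Acute phase proteins, which liver secretes in inflammation, were described from a list of 20 genes, 19 with a consensus peak. In the libraries labelled Phe31, 10 had lower peaks only (52.6%, against 32.3% of all protein-coding genes), 2 higher only (10.5% against 12.6%) and 4 both (21.1% against 7.86%). C3, the central complement component, had 11 listed peaks there, all lower, with the largest difference at 7.11 against 8.42, while in Phe11 a 27943-base peak over it was higher, at 11.64 against 10.55. Fgb, a fibrinogen chain, had a 7967-base peak at 10.00 against 11.09 in the libraries labelled Phe31, and in Phe11 a peak at 7.38 against 6.83. In Phe11 7 had higher only (36.8% against 5.82%) and 6 lower only (31.6% against 8.82%), and in Phe21 6 had higher only (31.6% against 15.1%), 4 lower only (21.1% against 19.0%) and 7 both (36.8% against 5.53%). The list members that were lower in Phe11 included Orm2, at 3.84 against 5.52, and Itih4, at 5.14 against 5.94.

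**Figure D5:**
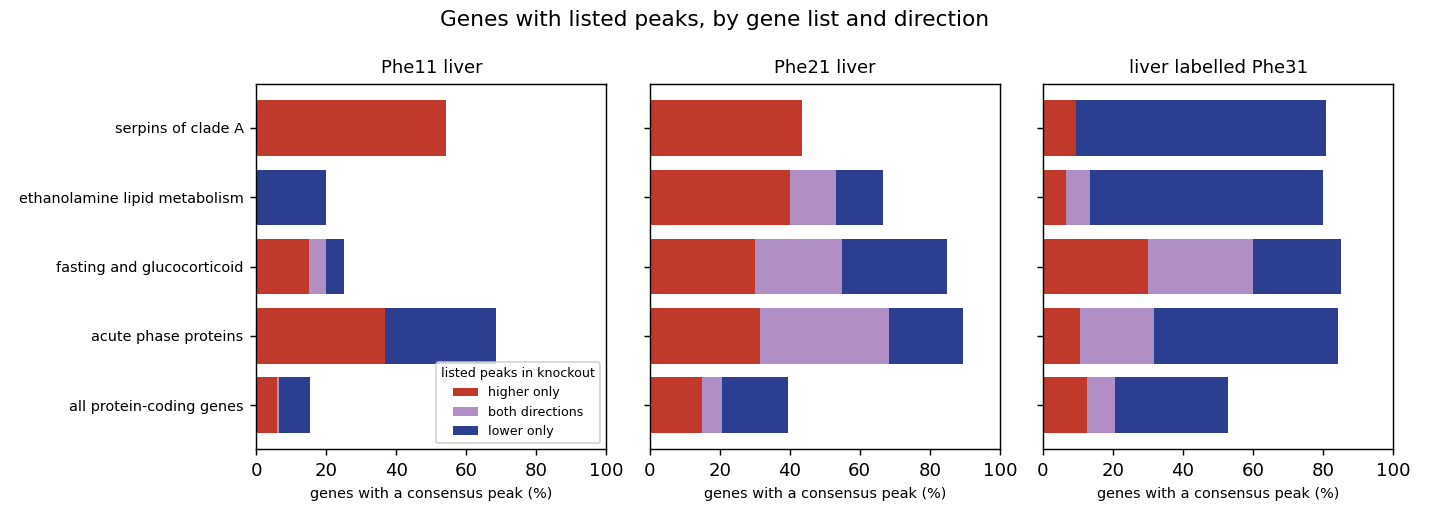
Share of the genes of each list that had listed peaks higher only (red), in both directions (violet) or lower only (blue) in the 3 liver comparisons, in percent of the list's genes with a consensus peak, with all protein-coding genes in the bottom row. Serpins of clade A are red only in Phe11 (13 of 24) and Phe21 (10 of 23), which share WT libraries, and mostly blue in the libraries labelled Phe31 (15 of 21).

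Peaks elsewhere were compared with the widest Etnppl peak, the leading one of its window, by the difference of the concentrations in the labelled Phe31 comparison, the only liver table that listed it. The nearest were 2 peaks inside Cyp3a25, with differences of 4.19 and 3.86, 1 peak beside Cyp3a25 at 4.12, 1 beside Cyp3a11 at 3.88 and 1 inside Mug1 at 3.77. Cyp3a25 and Cyp3a11 encode cytochrome P450 enzymes and Mug1 a secreted protease inhibitor of the alpha-2-macroglobulin family. The likeness is over 1 comparison. Applied to the Serpina3k window, the same rule took the 210-base peak chr12:104375380-104375589 with a difference of -1.69, since averaging over comparisons cancels the opposite signs at Serpina3k, and 10 peaks had exactly that value. By a second rule, chosen after the values were seen, the peaks most like Serpina3k over the Phe11 and labelled Phe31 comparisons, with 3.11 and -4.85, were those at Gm34264 (2.97 and at most -3.78), near Onecut1 (3.02 and -3.76), at Serpina4-ps1 (3.48 and -3.72), at Cyp2c67 (2.94 and -3.47) and at Ces3b (2.67 and -3.40). At Gm34264 the libraries labelled Phe31 stood at 0, the lowest concentration in any of the tables, so its second difference is a bound and its place in this order is not fixed. Onecut1 encodes a liver transcription factor, Cyp2c67 a cytochrome P450 and Ces3b a carboxylesterase.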

How the data were processed

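ATAC-seq libraries were made by the authors from nuclei of brain and liver. Per the paper's methods and the submitters' processing notes, reads were trimmed with Trim Galore 0.6.4, aligned to GRCm38.p6 with Bowtie2 2.4.1, and fragments of at most 175 nt were kept. Peaks were called with Genrich 0.6 and compared with DiffBind 3.0.8. The deposited concentrations are log2 group means of normalised reads, and the deposited FDR values (adjusted p-values) were read only to test that every listed peak is at or under 0.05. The authors' fold and p-value columns were not used. The knockout column is named for Phe11 in the Phe21 tables and the Phe31 brain table, and was taken as that table's knockout because WT is the only other group. The deposited tRNA-locus signal is the number of reads after division by a size factor of each library, as computed by the authors, over 401 loci. Whole reads were recovered (100% of values within 0.01 of a whole read). The liver libraries held 4719 to 23754 such reads, and the depth of the peak libraries is not given in the sources used here.

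Peaks were joined to windows by at least 1 shared base, and genes, starts and promoters came from RefSeq (GRCm38.p6), with the strand of genes lacking a promoter entry taken from GENCODE by symbol. No genome of this build was used, so no peak sequence is shown. The columns of the labelled Phe31 comparison carry no sample number and were assigned by group. No peak result has replicate values, so none was tested. Deleted loci were compared by exact two-sided permutation tests of log2(normalised count + 1), which measure the spread between libraries only. All listed members were named, and the peaks most like the leading one of each window (largest mean difference over its liver tables) were the 5 nearest by difference among peaks listed in the same tables. The members and gene lists were chosen with earlier results of these data known. Analyses used Python 3.11.15, pandas 2.3.3, scipy 1.17.1 and, for edgeR 4.0.16, R 4.3.3. The scripts were tested on simulated data. Alternatives changed the overlap rule, the windows, the minimum width, the centring of differences, the pseudocount, the scaling and the libraries, and edgeR on the recovered reads, the averaging of close pairs and the within-batch values were added after seeing the data.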

Additional observations from a re-analysis of the deposited data

How the results depend on the processing

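No deposited peak value has a replicate error, so the limits below concern counts, the choice of peaks and the deleted loci. Counts of members and of listed members changed by at most 1.5 times with the middle of the peak in the window or with peaks of at least 200 bases only. With the windows widened by 50 kb on each side, brain members went from 21, 16 and 19 to 43, 30 and 31 for Phe11, Phe21 and Phe31, and listed members of Phe11 brain from 4 to 9. The median difference of listed Serpina3k peaks was 1.03 in Phe11, 0.73 in Phe21 and -1.32 in the libraries labelled Phe31. It became 1.36, 0.46 and -0.92 after subtracting the median difference of all listed peaks, and 0.65, 0.81 and -1.34 over the more concentrated listed peaks alone. The median of listed Etnppl peaks, 0.42 in Phe21 and 3.42 in the libraries labelled Phe31, became 0.15 and 3.82 after that subtraction, and 0.59 and 4.42 over the more concentrated peaks. No listed liver member changed its sign on subtraction of the median. With an overlap of 50% of both peaks, the counts of members shared between liver comparisons over both windows stayed within 1.5 times, but in the Serpina3k region alone those of the labelled Phe31 comparison shared with Phe11 fell from 18 to 11, and counts shared between liver and brain also fell by over 1.5 times in several comparisons, as from 9 to 5 between liver Phe11 and brain Phe11. The pairs of listed members of Phe11 and the labelled Phe31 comparison fell from 6 to 2. That last count and the markers at any annotated start were chosen after seeing the data.

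At tRNA-Phe-GAA-1-1 in Phe11 liver the log2 difference of -2.54 lay between -2.77 and -2.27 with 1 library left out, where the smallest possible p is 0.0571 (exact permutation test). With a pseudocount of 0.1 or 10 it was -2.91 or -1.28, against -3.82 or -0.34 at the Phe21 locus (main -1.66) and -0.38 or -0.21 at that of the labelled Phe31 comparison (main -0.35). With 1 library left out, the difference lay between -2.03 and -1.41 at the Phe21 locus. At that of the labelled Phe31 comparison it lay between -0.52 and -0.21. In Phe11 it was -2.59 with WT replicates 1 and 22 averaged and -2.66 with every close pair averaged. It was -2.37 within batch 1 and -2.71 within batch 2 (exact permutation test, p = 0.333 in each, the smallest possible), which are not separate samples if the close pairs, each with 1 library in either batch, are single samples. With labels permuted within batches, -2.54 gave an exact permutation p = 0.0556, again the smallest possible. The edgeR quasi-likelihood test on recovered reads took every library as its own replicate and gave -2.96 in Phe11 (Benjamini-Hochberg adjusted p = 7.41e-11). No such test was run with the close pairs averaged, so this p rests on counting their libraries separately. At tRNA-Phe-GAA-3-1 in the labelled Phe31 comparison the edgeR test gave -0.42 (Benjamini-Hochberg adjusted p = 0.654). The test called 29 of 315 loci in Phe11, 42 of 283 in Phe21 and 20 of 282 in the labelled Phe31 comparison. No paired analysis was possible at the peaks because the peak values are group means. At the deleted loci, the replicate numbers that the labels give to knockout and WT libraries do not overlap. The column names of the labelled Phe31 comparison end in the same numbers in both groups. Whether these endings mark pairs is not stated, and no analysis paired by them was run.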
